A study of Mus musculus with 5 samples.

Results

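Imprinted genes are genes of which one parental copy is used and the other is kept silent, and 42 of them, out of 55573 genes in the expression table, are described here in tumours of Th-Cre:MYC mice and in normal mouse pancreas. The 42 were taken by gene symbol from a list of known imprinted genes in 19 loci, and all 42 symbols were found. The list was selected on these samples, with the differences between tumour and normal pancreas known, so those differences are given as a description and no test is claimed for them.

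RNA sequencing compared 3 tumours with 2 normal pancreases. The tumours came from mice that carry TH-Cre and CAG-STOPflox/flox-MYC, in which Cre made under the tyrosine hydroxylase (Th) promoter removes a stop in front of MYC, so that the transgene can be switched on in any cell that has used this promoter. Normal pancreas came from wild-type littermates, which carry neither transgene, and was perfused with RNAlater, an RNase inhibitor solution, before it was taken out. The labels give no age or sex. The series design places the tumours in the pancreas, and its title calls the model one of neuroblastoma. Tumour replicates 1 and 2 have the number 86 in common in their titles, unlike replicate 3. The labels leave unsaid what this number stands for, so a common animal is possible.

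In mammals the silent copy of an imprinted gene is in most cases set by DNA methylation at an imprinting control region. This methylation is laid down in the egg or the sperm, and the region then governs a cluster of neighbouring genes. Many clusters pair protein-coding genes with a long non-coding RNA from the opposite parental copy, and several of these RNAs silence their neighbours. Imprinted genes are best known for their use in placenta, embryo and brain, and some of them are also used in endocrine islets. The allele in use was not measured here: "paternal" and "maternal" below are textbook assignments for mouse tissues, and every value is the sum of both copies.

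The RefSeq windows of 250 bases before to 50 bases after the start are shown for 4 promoters on GRCm38.p6. They were chosen after the values were seen, because Usp29, Meg3 and Nnat were near 0 in normal pancreas and high in tumours while Grb10 was lower in tumours. Capitals mark CpG dinucleotides, the sites at which imprints of DNA methylation are written. The Usp29 window shares 263 bases with that of Peg3, which is read from the opposite strand and starts 146 bases away.
Usp29, chr7:6730333-6730632, plus strand: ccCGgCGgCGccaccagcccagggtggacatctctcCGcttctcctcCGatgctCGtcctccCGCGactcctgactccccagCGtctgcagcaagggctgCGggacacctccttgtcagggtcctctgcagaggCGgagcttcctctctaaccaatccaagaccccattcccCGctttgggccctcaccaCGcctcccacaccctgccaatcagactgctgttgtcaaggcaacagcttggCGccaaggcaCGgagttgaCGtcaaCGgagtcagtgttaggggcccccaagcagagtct
Meg3, chr12:109540746-109541045, plus strand: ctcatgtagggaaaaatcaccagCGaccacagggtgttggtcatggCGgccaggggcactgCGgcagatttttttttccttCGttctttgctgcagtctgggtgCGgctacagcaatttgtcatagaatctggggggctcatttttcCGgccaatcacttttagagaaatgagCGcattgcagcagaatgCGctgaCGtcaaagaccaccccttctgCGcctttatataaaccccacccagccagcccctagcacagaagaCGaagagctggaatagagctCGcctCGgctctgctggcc
Nnat, chr2:157559828-157560127, plus strand: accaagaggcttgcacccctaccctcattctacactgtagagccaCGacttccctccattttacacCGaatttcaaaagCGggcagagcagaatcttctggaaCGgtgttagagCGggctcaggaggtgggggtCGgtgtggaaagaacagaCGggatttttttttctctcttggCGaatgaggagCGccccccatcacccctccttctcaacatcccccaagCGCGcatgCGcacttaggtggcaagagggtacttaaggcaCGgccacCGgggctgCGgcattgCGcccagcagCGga
Grb10, chr11:12037371-12037670, minus strand: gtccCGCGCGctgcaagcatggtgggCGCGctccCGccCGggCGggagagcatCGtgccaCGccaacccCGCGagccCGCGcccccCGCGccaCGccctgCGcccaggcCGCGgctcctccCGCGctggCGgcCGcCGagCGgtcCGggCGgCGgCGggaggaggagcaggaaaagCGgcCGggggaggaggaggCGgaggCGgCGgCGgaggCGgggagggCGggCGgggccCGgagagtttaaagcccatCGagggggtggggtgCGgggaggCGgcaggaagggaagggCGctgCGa

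The Usp29 and Nnat windows held 17 CpG each, the Meg3 window 13 and the Grb10 window 45. As many CpG as in the Grb10 window occurred in 1.93% of all 32851 windows, and 31.4% of windows held as many as those of Usp29 and Nnat. Windows were found for 33 of the 42 members, 51 windows in all, with a median of 12 CpG against 7 over all windows. The hexamer TGCCGC, which the imprint-keeping zinc finger protein ZFP57 binds when its CpG is methylated, stood on either strand in 11 of the 51 member windows, or 21.6%, and in 11.6% of all windows. Those 11 windows belong to 10 members and include the windows of Meg3, Nnat and Grb10 above, but not that of Usp29. The hexamer holds a CpG itself, and windows with as many CpG as those of the members were not compared. Nothing on ZFP57 binding is therefore read from the difference in shares. Some members have several windows that overlap, and no other motif was searched.

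Meg3, Rian and Mirg, which have high tumour levels, are also hosts of microRNAs. Mirg holds 26 annotated mature microRNAs on its own strand, Rian 6 and Meg3 3, and the protein-coding Mest holds 2. Examples are shown with the seed, bases 2 to 8, in capitals, to give the sequences these host RNAs carry. The seed GGUUGCC of mmu-miR-453 and mmu-miR-496a-5p was the only one that occurred in 2 of the microRNAs of the members.
mmu-miR-370-3p (Rian): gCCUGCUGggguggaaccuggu
mmu-miR-134-5p (Mirg): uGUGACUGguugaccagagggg
mmu-miR-410-3p (Mirg): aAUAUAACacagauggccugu
mmu-miR-453 (Mirg): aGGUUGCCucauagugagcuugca
mmu-miR-496a-5p (Mirg): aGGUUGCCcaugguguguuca
mmu-miR-335-5p (Mest): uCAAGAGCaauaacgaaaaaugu

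The mature microRNAs themselves were not measured: the 67 annotated microRNA genes between the outermost members of the Dlk1-Dio3 domain received 1 count in all 5 libraries together. What follows on these loci concerns the long host RNAs.

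Total estimated counts were 6611967 to 15074489 per tumour library and 48848987 and 51669489 in normal pancreas. Levels are given as CPM, counts relative to the library size after TMM scaling, which corrects for the few genes that fill most of a library (factors of 2.19 to 2.57 in tumours, against 0.263 and 0.271 in normal pancreas). Genes of the misc_RNA class took 22.03% to 25.3% of tumour counts and at most 0.00116% of normal counts. This share goes with the groups, so the tissue and the way RNA and libraries were prepared cannot be told apart as its source. Its part in the levels and transcript lengths below was not tested. Marker genes moved with the groups as well. The 6 acinar markers, enzymes of the digestive pancreas, summed to 15.9, 3.09 and 857 CPM in tumours and to 1063000 and 1108000 CPM in normal pancreas, where the TMM scaling lets CPM sum past the library total, and all 6 fell. The 6 endocrine markers summed to 4085, 2096 and 4517 CPM in tumours, against 23.8 and 24.7 CPM in normal pancreas, and all 6 rose. The 5 sympathoadrenal markers read here, which a neuroblastoma label would call for, summed to 12.2, 7.22 and 1.66 CPM in tumours, against 0.378 and 0.663 CPM in normal pancreas. Among them Th, whose promoter drives Cre, had 11.4, 6.01 and 1.04 CPM in tumours and no count in normal pancreas, and Hand2 lay above both normal libraries in every tumour, with 0.623 to 1.08 CPM. Phox2a and Dbh had at most 3 counts each over the 3 tumours, and Gata3 had 6. Stroma markers summed to 249 to 484 CPM in tumours and 125 and 184 CPM in normal pancreas, although Dpt and Pdgfra, 2 of the 6, lay below both normal libraries in every tumour on the CPM scale. Pericyte markers summed to 240 to 360 CPM in tumours and 27.5 and 35.9 CPM in normal pancreas. The part of these cell types in any difference below was not tested, and in bulk samples fewer cells of a type and less RNA per cell cannot be told apart.

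Of the 42 imprinted genes, 38 had enough counts to be fitted. Among the 38, 26 were higher in tumours and 4 lower at an adjusted p under 0.05 (edgeR quasi-likelihood test, adjusted over 16810 genes), where 39.2% of all tested genes were higher and 27.8% lower. Since the members were chosen with this contrast known, nothing is read from that difference, and genes with hardly any normal counts were fitted because of their tumour counts alone. The median log2 fold change of the 38 was 4.22, or 3.95 with genes at 0 in normal pancreas set to their lower bound, beside 0.38 over all tested genes. Every tumour lay above both normal libraries for 28 of the 42, below both for 7, and the groups overlapped for 7. The share of all genes ordered in these ways was not computed, so nothing about the members is read from these counts. Together the 42 took 1.101% to 1.261% of all tumour counts, against 0.0231% and 0.0234% of normal counts.

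**Figure D1:**
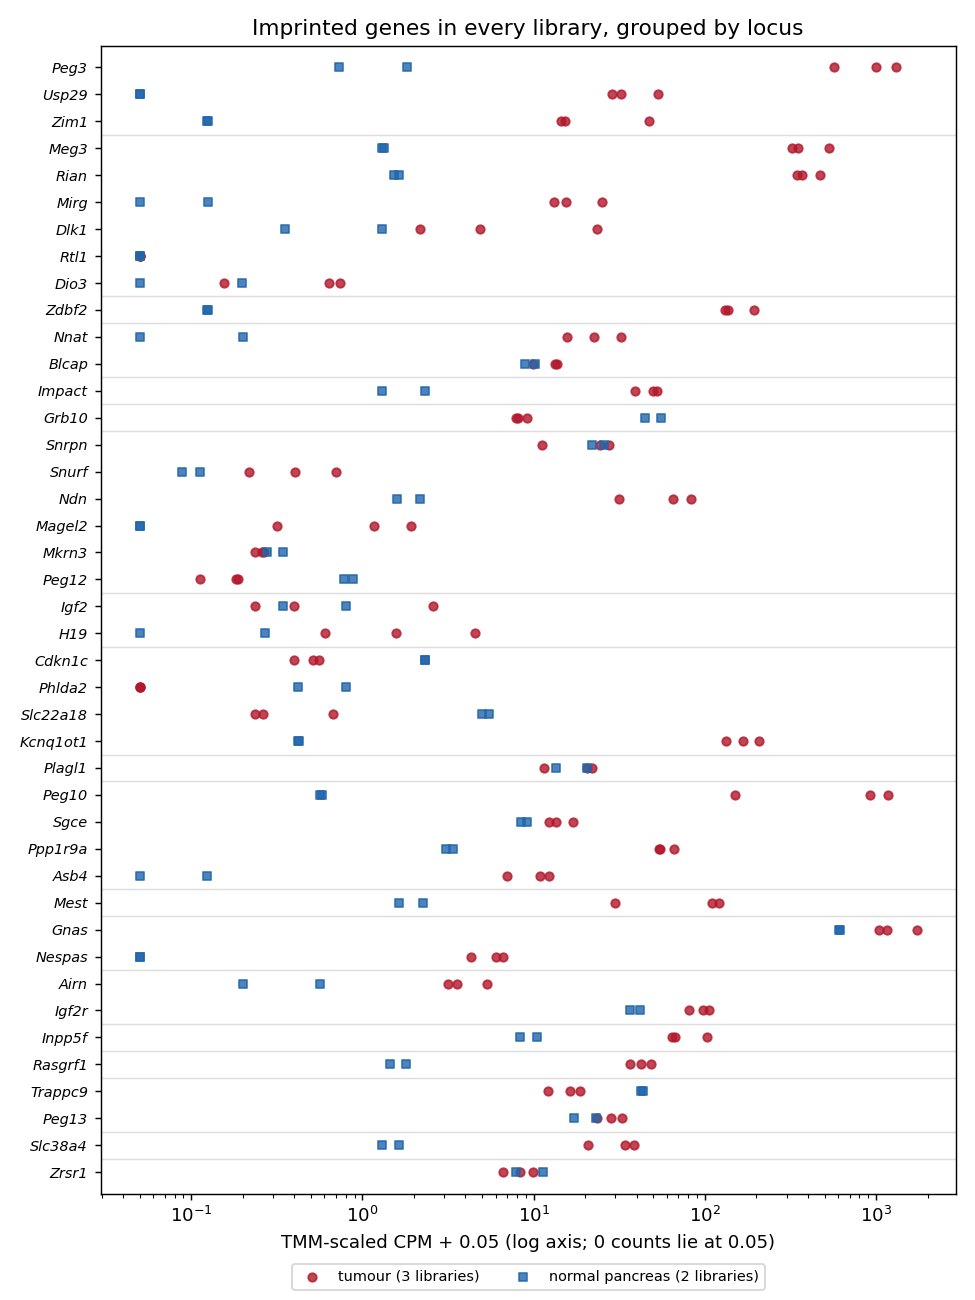
CPM of each imprinted gene in every library (log axis, 0.05 added), grouped by locus, with circles for 3 tumours and squares for 2 normal pancreases. For 28 of the 42 genes all circles lie to the right of both squares, and Rtl1 lies at 0 in every library.

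The Peg3 domain on chromosome 7 stood high in every tumour. Peg3 (paternal, a zinc finger protein, chr7:6703892-6730431, GRCm38) had 999.7, 565 and 1308 CPM in tumours, against 0.680 and 1.77 CPM in normal pancreas. Usp29 (paternal, a deubiquitinase, chr7:6730578-6967219) had 32.2, 28.7 and 52.9 CPM in tumours and no count in either normal library. Zim1 (maternal, a zinc finger protein) had 47.5, 15.1 and 14.3 CPM in tumours, against 0.0756 and 0.0737 CPM in normal pancreas. All 3 genes thus separated the groups without overlap, and paternal and maternal genes of the domain lay on the same side.

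The log2 fold change of Peg3 was 9.60 ± 0.73 (SE). Usp29 was at least 307-fold higher, taking a floor of 3 counts over the normal group, and Zim1 394-fold higher by pooled counts, with a 95% counting interval of 109 to 3257 that covers counting error only. Without tumour replicate 1, Zim1 was 199-fold higher (54.97 to 1649), and without normal replicate 2 the log2 fold change of Peg3 was 10.46. The bound for Usp29 was 156 and 152 without normal replicate 1 and 2. Peg3 and Usp29 are read in opposite directions from one promoter region, and whether the counting used strand is not given in the sources used here.

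In the Dlk1-Dio3 domain on chromosome 12 the non-coding RNAs of the maternal copy were high in tumours. Meg3 (chr12:109541001-109571726), a long non-coding RNA with growth-suppressing activity in cell lines, had 529, 321 and 352 CPM in tumours, against 1.29 and 1.25 CPM in normal pancreas. Rian, a host of small nucleolar RNAs and microRNAs, had 469, 367 and 344 CPM in tumours, against 1.59 and 1.47 CPM in normal pancreas. Mirg, the microRNA host whose sequences are shown above, had 25.2, 15.5 and 13.1 CPM in tumours, against 0.0756 CPM (1 count) and 0 in normal pancreas. The 3 RNAs kept nearly the same order of tumours, with replicate 1 highest for each.

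Meg3 and Rian had log2 fold changes of 8.30 ± 0.39 and 8.002 ± 0.30 (SE), and Mirg was 520-fold higher by pooled counts (95% counting interval 93.2 to 20560). Without normal replicate 1, Mirg was at least 87.8-fold higher, and without normal replicate 2 the ratio was 257. The paternal protein-coding genes of the domain were much lower. Dlk1, a transmembrane Notch-related protein of endocrine and fat precursors, had 2.13, 23.5 and 4.85 CPM in tumours, against 0.302 and 1.25 CPM in normal pancreas. Its log2 fold change was 3.70 ± 1.27 (SE), and the adjusted p (edgeR) passed 0.05 with all libraries but was 0.186 and 0.098 without normal replicate 1 and 2. The log2 fold change of Dlk1 was 3.02 and 5.07 without those libraries and 2.13 without tumour replicate 2.

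Dio3, the deiodinase that inactivates thyroid hormone, had 0.106, 0.588 and 0.692 CPM in tumours, against 0 and 0.147 CPM in normal pancreas, and the groups overlapped. Its adjusted p (edgeR) was 0.135 with all libraries and 0.025 without tumour replicate 1. Rtl1, a retrotransposon-derived protein, was at 0 in all 5 libraries, which allows up to 3 counts over each group. Rtl1 lies opposite 11 annotated mature microRNAs. Per unit of length, Meg3 averaged 117 TPM and Rian 178 TPM in tumours, whereas Dlk1 averaged 5.68 TPM and Dio3 0.213 TPM there.

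**Figure D2:**
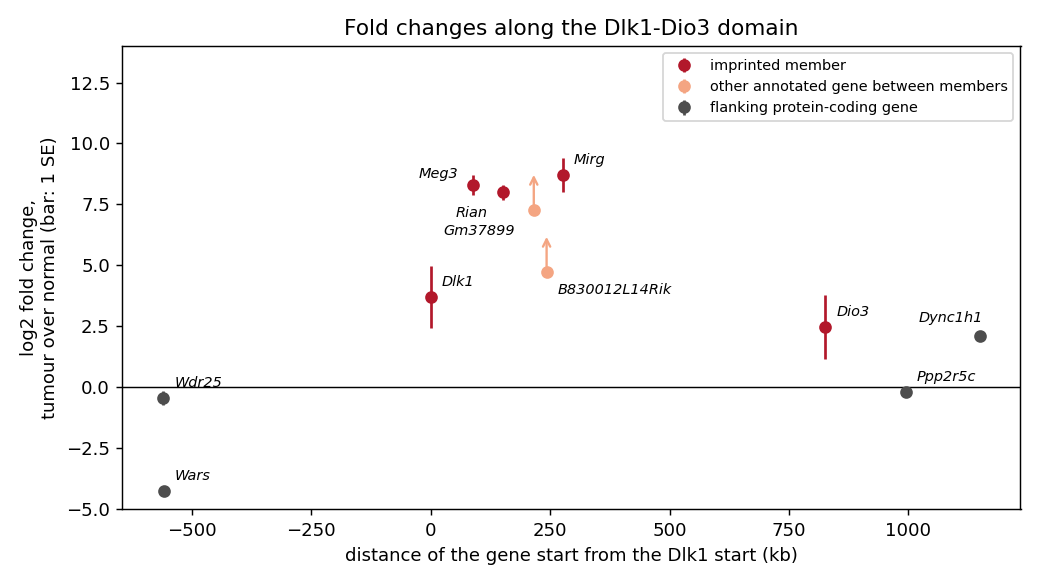
Log2 fold change, tumour over normal (bars 1 SE), against the distance of each gene's start from that of Dlk1 in kb; arrows mark lower bounds for genes at 0 in normal pancreas. Meg3, Rian and Mirg lie between 8.002 and 8.71, Dlk1 and Dio3 at 3.70 and 2.47, and the nearest tested protein-coding genes outside the domain between -4.24 and 2.10.

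Kcnq1ot1, a long RNA of the paternal copy that silences its neighbours in cis, had the opposite course to Cdkn1c, Slc22a18 and Phlda2, the maternal members of its domain. Kcnq1ot1 (chr7:143203458-143296549) had 207, 167 and 133 CPM in tumours, against 0.378 and 0.368 CPM in normal pancreas, a log2 fold change of 8.80 ± 0.35 (SE). Cdkn1c, the cyclin-dependent kinase inhibitor p57, had 0.505, 0.465 and 0.346 CPM in tumours, against 2.27 and 2.28 CPM in normal pancreas. Slc22a18, a membrane transporter, had 0.213, 0.186 and 0.623 CPM in tumours, against 5.44 and 4.93 CPM in normal pancreas. Tumours and normal pancreas overlapped for neither gene. Other imprinted genes of this region did not all fall. Cd81 was higher in tumours (log2 fold change 0.81 ± 0.17 SE, adjusted p = 0.0063, edgeR). Tssc4, Nap1l4, Osbpl5 and Tspan32 did not pass the threshold.

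Phlda2, a growth-restraining gene of the placenta, had no count in any tumour and 0.756 and 0.368 CPM in normal pancreas. With TMM scaling it was at least 15.7-fold lower in tumours by pooled counts. The bound was 8.72-fold and 9.71-fold without tumour replicate 1 and 2 and 10.35-fold without normal replicate 1. It rests on 15 counts in normal pancreas, whose libraries were the deeper ones, and would be smaller with total counts. The log2 fold changes of Cdkn1c and Slc22a18 were -2.33 ± 0.39 and -4.07 ± 0.54 (SE). With total counts in place of TMM scaling, Cdkn1c came to 0.85, and the call for Cdkn1c was lost with TPM values. Kcnq1, the potassium channel gene that Kcnq1ot1 overlaps on the other strand, fell to 2.52, 1.21 and 1.39 CPM in tumours, against 57.5 and 57.8 CPM in normal pancreas (log2 fold change -5.04 ± 0.31 SE, adjusted p = 5.5e-05, edgeR). Counts of such overlapping genes cannot be told apart by strand here.

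The 4 members of the Peg10 domain on chromosome 6 were all higher in tumours, with a large spread between tumours for the leading gene. Of the other tested genes between them, Gm26814 was higher, Pon2 lower, and Pon3 and Gm44250 did not pass the threshold. Peg10 (paternal, a retrotransposon-derived capsid protein, chr6:4747306-4760517) had 151, 1172 and 917 CPM in tumours, against 0.529 and 0.516 CPM in normal pancreas. The log2 fold change of Peg10 was 10.47 ± 1.26 (SE). Sgce, the epsilon-sarcoglycan gene that starts 98 bases from Peg10 on the other strand and is also paternal, had 12.2, 13.5 and 17.0 CPM in tumours, against 8.39 and 9.06 CPM in normal pancreas. Its log2 fold change was 0.70 ± 0.19 (SE), with adjusted p values (edgeR) of 0.113 and 0.076 without normal replicate 1 and 2. These 2 neighbours were unlike in both level and fold change.

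The maternal members of the domain were higher as well. Ppp1r9a, a scaffold protein of neuronal synapses, had 54.5, 53.6 and 65.6 CPM in tumours, against 3.33 and 3.02 CPM in normal pancreas (log2 fold change 4.19 ± 0.19 SE). Asb4, an ubiquitin ligase adaptor, had 10.8, 6.97 and 12.3 CPM in tumours, against 0 and 0.0737 CPM in normal pancreas, a pooled ratio of 257 (95% counting interval 45.9 to 10150) that was 130.1 without normal replicate 1 and at least 42.2 without normal replicate 2. Tumours and normal pancreas did not overlap for either gene.

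Zdbf2 (paternal, a zinc finger protein, chr1:63273265-63314576) had 131, 194 and 136 CPM in tumours, against 0.0756 and 0.0737 CPM in normal pancreas. Those normal values are 1 count per library, and by pooled counts Zdbf2 was 2094-fold higher (95% counting interval 579.6 to 17290). Nnat (paternal, neuronatin, a small membrane protein of the endoplasmic reticulum in neurons and beta cells, chr2:157560078-157562522) had 32.4, 15.6 and 22.4 CPM in tumours, against 0.151 and 0 CPM in normal pancreas. Nnat was 325-fold higher by pooled counts (89.9 to 2687), at least 109.8-fold without normal replicate 1 and 160.5-fold without normal replicate 2. It lies within an intron of Blcap, which overlapped between the groups, with 13.6, 9.88 and 13.2 CPM in tumours and 10.2 and 8.84 CPM in normal pancreas. The adjusted p of Blcap (edgeR) was 0.148, and 0.030 without tumour replicate 2.

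Mest, a paternal hydrolase-like gene of growing mesoderm on chromosome 6 (chr6:30723547-30748465), had 120.5, 29.8 and 111 CPM in tumours, against 1.59 and 2.21 CPM in normal pancreas (log2 fold change 5.51 ± 0.75 SE). Rasgrf1, a Ras exchange factor of neurons and beta cells, had 48.8, 42.5 and 36.5 CPM in tumours, against 1.74 and 1.40 CPM in normal pancreas (4.76 ± 0.23). Slc38a4, an amino acid transporter of placenta and liver, had 20.8, 38.7 and 33.9 CPM in tumours, against 1.59 and 1.25 CPM in normal pancreas (4.45 ± 0.36). Each of these paternal genes stood apart in all 3 tumours.

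Impact, a paternal regulator of the GCN2 stress kinase, was likewise apart, with 39.0, 52.6 and 49.9 CPM in tumours, against 2.27 and 1.25 CPM in normal pancreas (log2 fold change 4.74 ± 0.31 SE). Inpp5f, a phosphoinositide phosphatase of which one brain isoform is paternal, had 67.0, 64.1 and 103 CPM in tumours, against 8.32 and 10.5 CPM in normal pancreas (3.05 ± 0.28).

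The Snrpn domain on chromosome 7, the mouse counterpart of the Prader-Willi region in humans, was divided among its 6 members, all of them paternal. Ndn, which encodes the growth suppressor necdin of postmitotic neurons (chr7:62346569-62350262), had 31.5, 64.7 and 82.5 CPM in tumours, against 2.12 and 1.55 CPM in normal pancreas (log2 fold change 5.02 ± 0.52 SE). Magel2, a ubiquitin ligase partner, had 0.266, 1.11 and 1.87 CPM in tumours and no count in normal pancreas, and was at least 7.73-fold higher. Its adjusted p (edgeR) was 0.067 and 0.068, and its bound 3.92 and 3.81, without normal replicate 1 and 2, and the bound was 12.05 without tumour replicate 1. Ndn and Magel2 were lowest in tumour replicate 1 and highest in replicate 3.

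Snrpn, a splicing protein gene at the imprinting control region, overlapped between the groups, with 11.1, 27.4 and 24.4 CPM in tumours and 25.8 and 21.8 CPM in normal pancreas. It shares reads with Snurf and Gm38393 on the same strand, which RSEM divides among them. Summed over the 3 genes, the levels were 18.8, 45.4 and 39.3 CPM in tumours, against 26.0 and 22.2 CPM in normal pancreas, and still overlapped. The log2 fold change of Snrpn was -0.19 with TMM scaling, but 2.99 with total counts and 0.999 and 1.14 with TPM values. Snurf by itself had 0.355, 0.169 and 0.653 CPM in tumours, against 0.0620 and 0.0390 CPM in normal pancreas, and did not pass the threshold (adjusted p = 0.084, edgeR, and 0.028 without tumour replicate 2). Mkrn3 and Peg12 had too few counts to be fitted, with at most 0.217 CPM in a tumour and 0.227 to 0.832 CPM in normal pancreas. In TPM Peg12 kept this order but Mkrn3 had the opposite one, with 0.07, 0.08 and 0.06 TPM in tumours and 0.03 and 0.04 TPM in normal pancreas.

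The growth genes of the Igf2-H19 domain stayed at low levels. Igf2, the insulin-like growth factor of the paternal copy, had 2.55, 0.186 and 0.346 CPM in tumours, against 0.756 and 0.295 CPM in normal pancreas. H19, the long non-coding RNA of the maternal copy, had 4.52, 0.557 and 1.52 CPM in tumours, against 0 and 0.221 CPM in normal pancreas. Tumour replicate 1 held 96 of the 107 tumour counts of Igf2 and 170 of the 210 of H19. The groups overlapped for Igf2, and for H19 all tumours lay above.

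The log2 fold change of Igf2 was 1.02 ± 1.20 (SE, adjusted p = 0.475, edgeR), and it was -1.06 without tumour replicate 1 and 1.83 and 0.50 without normal replicate 1 and 2. H19 was 22.2-fold higher by pooled counts (95% counting interval 7.51 to 109) and 7.65-fold without tumour replicate 1 (2.44 to 38.6), and its adjusted p (edgeR) was 0.14 and 0.059 without normal replicate 1 and 2. Its ratio was then 11.3 and at least 10.97. Igf2r, the maternal receptor that takes IGF2 to the lysosome, had 106, 80.8 and 97.8 CPM in tumours, against 36.6 and 41.5 CPM in normal pancreas (log2 fold change 1.28 ± 0.17 SE). Airn, the paternal antisense RNA that silences Igf2r in early development, had 5.26, 3.097 and 3.53 CPM in tumours, against 0.151 and 0.516 CPM in normal pancreas (3.55 ± 0.57, or 2.93 and 4.69 without normal replicate 1 and 2). Airn starts inside Igf2r, and both members of this sense and antisense pair were higher in tumours. Grb10, an adaptor that restrains insulin and IGF receptor signalling and is used from different copies in neurons and other tissues (chr11:11930508-12038683), had 9.06, 7.87 and 8.03 CPM in tumours, against 44.6 and 55.2 CPM in normal pancreas. All 3 tumours lay below, with a log2 fold change of -2.58 ± 0.16 (SE), which became 0.60 with total counts in place of TMM scaling.

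Gnas, the stimulatory G protein alpha subunit gene with several imprinted alternative starts (chr2:174284320-174346744), had 1159.5, 1042 and 1726 CPM in tumours, against 609 and 618 CPM in normal pancreas (log2 fold change 1.09 ± 0.34 SE). Its adjusted p (edgeR) was 0.18 and 0.169 without normal replicate 1 and 2. Nespas, the paternal antisense RNA at the same locus, had 6.62, 4.27 and 5.96 CPM in tumours and no count in normal pancreas, and was at least 50.1-fold higher, or 25.4-fold and 24.7-fold without normal replicate 1 and 2.

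Plagl1 (paternal, a zinc finger regulator of growth) overlapped between the groups, with 11.4, 21.8 and 20.4 CPM in tumours and 13.4 and 20.5 CPM in normal pancreas. Zrsr1, a paternal splicing factor gene lying in an intron of Commd1, also overlapped, with 9.86, 6.597 and 8.31 CPM in tumours and 7.86 and 11.3 CPM in normal pancreas. The log2 fold change of Zrsr1 was -0.22 with TMM scaling, but 2.96 with total counts and 0.68 and 0.97 with TPM values. Peg13, a paternal long non-coding RNA in an intron of Trappc9, had 23.3, 28.4 and 32.7 CPM in tumours, against 17.2 and 23.1 CPM in normal pancreas, a log2 fold change of 0.48 ± 0.21 (SE) that missed the threshold although every tumour lay above (adjusted p = 0.080, edgeR, and 0.029 without tumour replicate 1). Trappc9, a vesicle trafficking subunit that is maternal in brain, had 16.2, 12.05 and 18.6 CPM in tumours, against 43.7 and 42.2 CPM in normal pancreas. Its log2 fold change of -1.46 ± 0.20 (SE) became 1.70 with total counts, and its call was lost with TPM values.

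**Figure D3:**
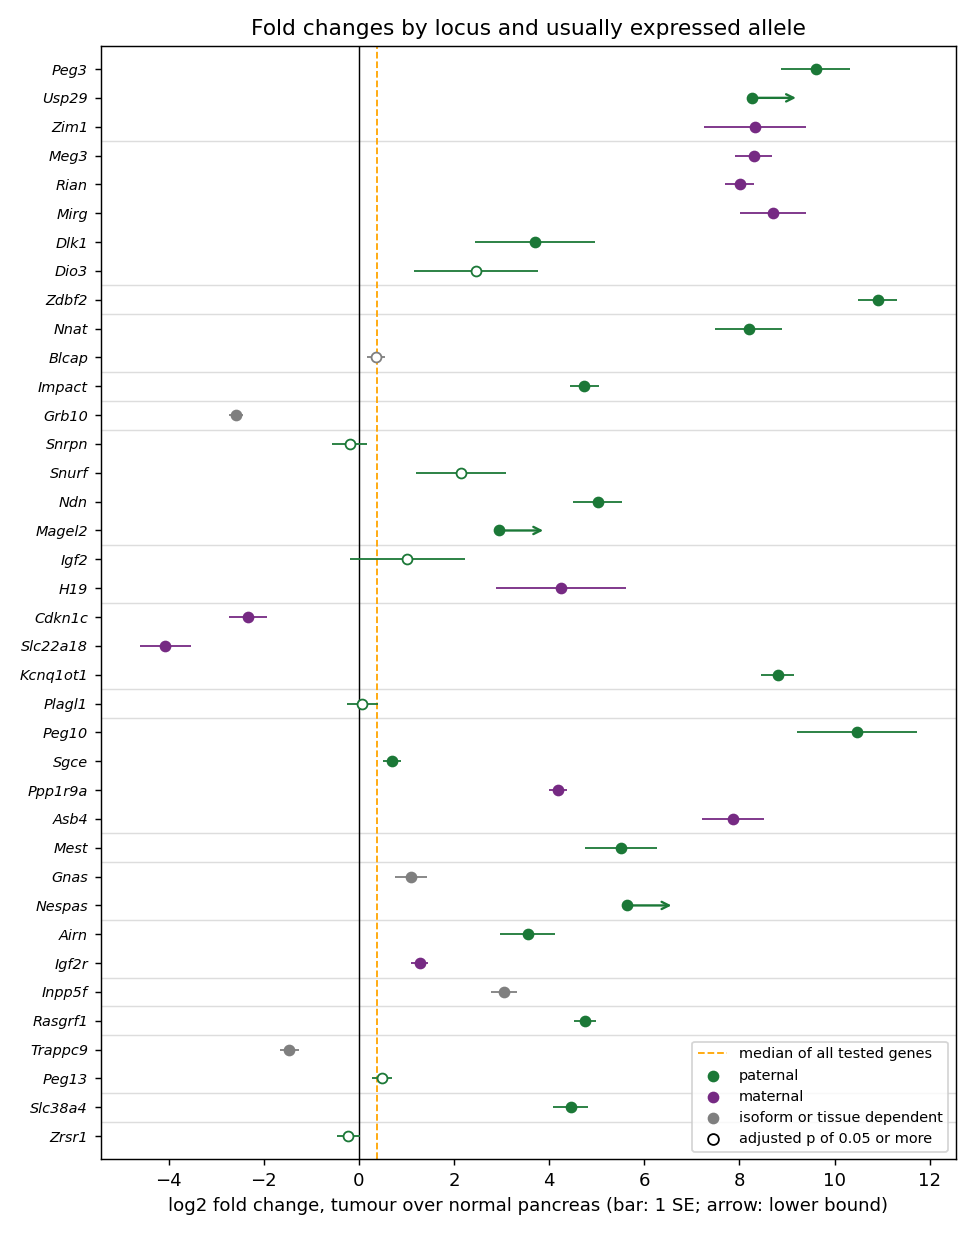
Log2 fold change of the 38 fitted imprinted genes, tumour over normal pancreas, with 1 SE; arrows start at the lower bound for the 3 genes at 0 in normal pancreas, and values of genes with 1 to 3 normal counts depend on the prior count of the fit. Colours give the usually expressed parental copy, and paternal and maternal genes both reach log2 fold changes above 8.

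By parental copy, 16 of the 23 fitted paternal genes were higher, none lower and 7 did not pass the threshold. Over all tested genes 39.2% were higher and 27.8% lower. Since the members were chosen with this contrast known, nothing is read from the counts by parental copy. Of the 10 fitted maternal genes, 8 were higher and 2 lower, namely Cdkn1c and Slc22a18. The 5 genes whose imprint depends on isoform or tissue gave 2 higher (Gnas and Inpp5f), 2 lower (Grb10 and Trappc9) and 1 that did not pass (Blcap). Median log2 fold changes were 4.74 for paternal genes (4.45 with bounds), 6.06 for maternal genes and 0.36 for the rest. With total counts in place of TMM scaling 36 members were higher and none lower, and with TPM values 30 or 33 were higher and 2 lower, depending on the pseudocount. Of all 16810 tested genes, 15681 were higher and 398 lower with total counts. With TPM values 10665 or 11558 of all tested genes were higher and 1173 or 1192 lower. The lower calls that held with both TPM pseudocounts were those of Slc22a18 and Grb10. With total counts Slc22a18 had a log2 fold change of -0.91 and was not called, and the other 3 genes had positive values. By RNA class, 7 of the 8 long non-coding members were higher, where 54.7% of the 941 tested long non-coding genes were.

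On the TPM scale, which allows genes to be compared per length, Gnas had the highest mean among the members in tumours (701 TPM), followed by Rian (178 TPM), Meg3 (117 TPM), Peg3 (97.3 TPM), Peg10 (91.1 TPM) and Mest (35.1 TPM). Rian exceeded Meg3 in every tumour. Meg3 had 86.6 to 170 TPM, Peg3 60.6 to 117 TPM, Peg10 20.9 to 153 TPM and Mest 12.1 to 58.9 TPM, so neighbours in this order overlapped and their order does not exceed their spread. Peg3 was above Meg3 in tumour replicate 3, and Mest above Peg10 in replicate 1. In normal pancreas Gnas was again first, with a mean of 151 TPM, and the next members were Snrpn (4.06 TPM), Trappc9 (3.81 TPM) and Grb10 (3.09 TPM). Kcnq1ot1, which is long and unspliced, averaged 1.503 TPM in tumours despite its 133 to 207 CPM.

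The spread between the 3 tumours was wide for some imprinted genes. Among the 30 members with a mean tumour level of at least 5 CPM, the highest tumour exceeded the lowest by a median of 1.63-fold, beside 1.314-fold over 8891 genes at that level. More than 3-fold differences were found for 4 of the 30 members (13.3%), against 4.3% of all such genes. They were Dlk1 with 11.1-fold, Peg10 with 7.78-fold, Mest with 4.04-fold and Zim1 with 3.31-fold. Dlk1 and Peg10 were highest in tumour replicate 2 and lowest in replicate 1, whereas Mest and Zim1 were highest in replicate 1. These are descriptions of 3 tumours, and no test was made.

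**Figure D4:**
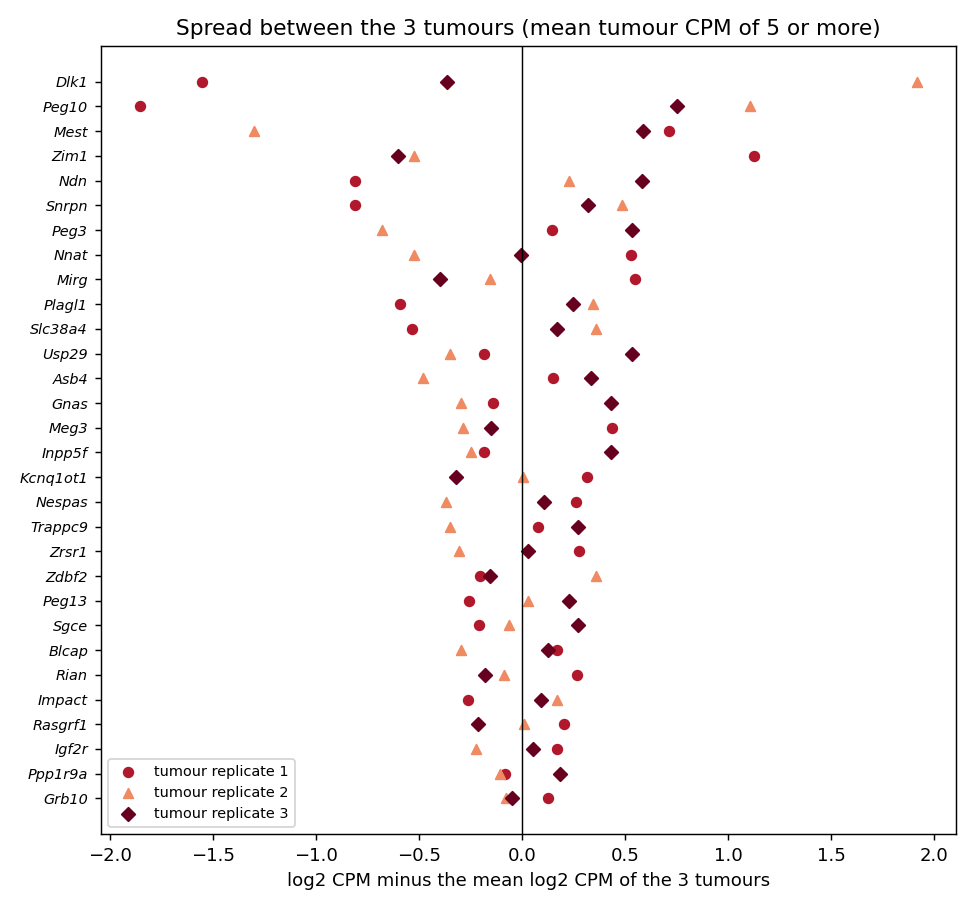
Log2 CPM of each tumour minus the mean of the 3 tumours, for the 30 imprinted genes with a mean of at least 5 CPM, ordered by spread. Dlk1 spans 11.1-fold and Peg10 7.78-fold between tumours, while Grb10 spans 1.15-fold.

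Which transcripts of a gene were in use can be followed by the RSEM length, the mean length of its transcripts weighted by abundance, a measure apart from the level. It could be followed in 17 members with at least 10 counts in every library. All tumours were longer than both normal libraries for 6 of the 17 and shorter for 5, where 19.4% of 10034 genes were longer and 26.4% shorter. Meg3 had 2967, 3297 and 2803 bases in tumours, against 1230 and 1513 bases in normal pancreas. Gnas had 1674, 1614 and 1708 bases in tumours, against 1370 and 1395 bases in normal pancreas.

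Slc38a4, Sgce, Trappc9 and Zrsr1 were longer in every tumour as well. For Slc38a4 the groups barely parted, with 3840 bases in tumour replicate 3 against 3838 bases in normal replicate 2. Ppp1r9a was shorter, with 6122, 6972 and 6612 bases in tumours, against 8077 and 9504 bases in normal pancreas, and so were Impact, Plagl1, Blcap and Grb10. Grb10 differed little, with 4976, 4974 and 4627 bases in tumours, against 5035 and 5022 bases in normal pancreas. The smallest p that 3 against 2 libraries allow is 0.1 (two-sided exact permutation test). Adjusted over the 17 genes, the lowest value was 0.189, so none passed 0.05. The normal value of Meg3 rests on 17 counts per library. Those of Impact rest on 30 and 17 counts and those of Slc38a4 on 21 and 17.

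**Figure D5:**
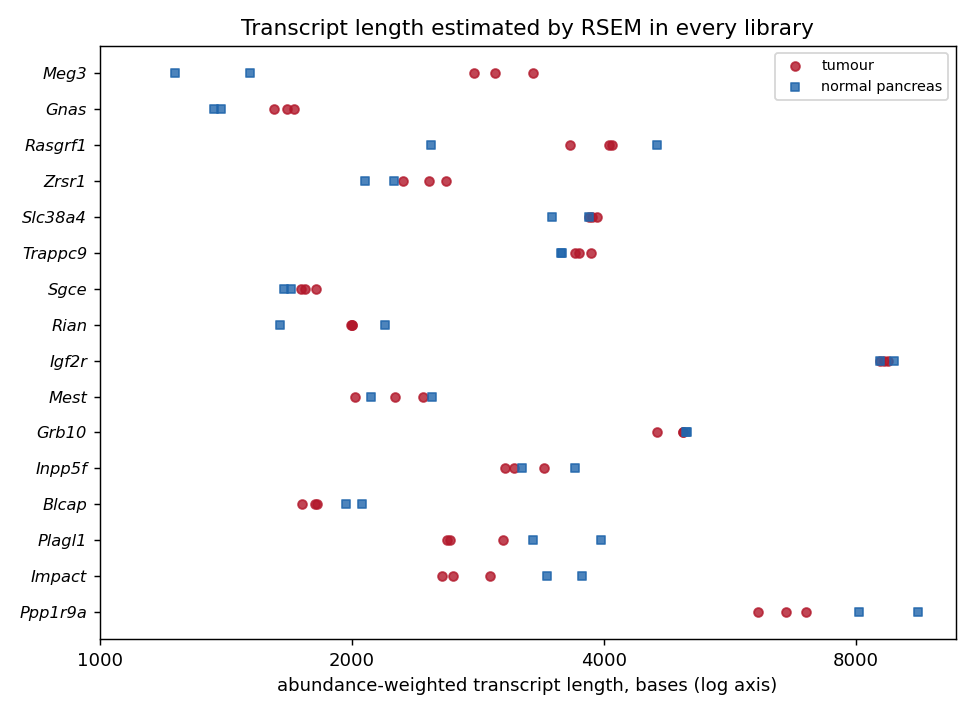
Abundance-weighted transcript length in bases (log axis) in every library for 16 imprinted genes, with circles for tumours and squares for normal pancreas; Snrpn, at 1932 bases in all libraries, is left out. Meg3 and Gnas are longer in all 3 tumours and Ppp1r9a is shorter.

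Of 38 other genes described as imprinted in mouse, 28 were tested, of which 8 rose (28.6%), 9 fell and 11 did not pass the threshold, where 39.2% of all tested genes were higher and 27.8% lower. Their median log2 fold change was -0.17, beside 0.38 over all tested genes. With total counts 25 rose and 2 fell, where 15681 of all 16810 tested genes were higher, and with TPM values 16 or 17 rose and 3 fell. Nap1l5, a paternal nucleosome assembly gene, had 15.5, 13.5 and 17.9 CPM in tumours, against 0.0756 and 0 CPM in normal pancreas (pooled ratio 406, 95% counting interval 72.7 to 16040, adjusted p = 4.3e-05, edgeR), and its fitted log2 fold change of 8.51 was 11.58 and 7.61 without normal replicate 1 and 2. Gatm, an enzyme of creatine synthesis that is abundant in pancreas, fell to 7.63, 14.8 and 15.1 CPM in tumours, against 490.5 and 542 CPM in normal pancreas (log2 fold change -5.37 ± 0.34 SE, adjusted p = 5.8e-05, edgeR). Cobl, an actin nucleator next to Grb10, fell by 2.60 ± 0.18 on the log2 scale (SE, adjusted p = 7.8e-05, edgeR), but was 0.59 with total counts.

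Ube3a, the ubiquitin ligase at the end of the Snrpn domain, rose to 84.6, 84.6 and 84.8 CPM in tumours, against 35.6 and 37.3 CPM in normal pancreas (log2 fold change 1.21 ± 0.13 SE, adjusted p = 0.000365, edgeR). Commd1, the host of Zrsr1, fell to 6.74, 9.53 and 8.45 CPM in tumours, against 17.9 and 15.9 CPM in normal pancreas (-1.04 ± 0.19, adjusted p = 0.00336, edgeR), and had the opposite sign with total counts (2.14) and with TPM values (0.30 and 0.32 with pseudocounts of 1 and 0.1). Copg2, the neighbour of Mest, had 16.5, 13.3 and 16.2 CPM in tumours and 20.6 and 18.9 CPM in normal pancreas and did not pass the threshold (adjusted p = 0.074, edgeR).

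Of 10 genes that set or keep imprints, 9 were tested, and 6 rose and 1 fell, beside the 39.2% of all tested genes that were higher and 27.8% that were lower. With total counts 9 rose, when 15681 of 16810 genes did, and with TPM values 8 or 9, when 10665 or 11558 did, and none of the 10 fell. Dnmt1, the methyltransferase that copies methylation at replication, had 21.1, 22.6 and 26.7 CPM in tumours, against 3.18 and 3.68 CPM in normal pancreas (log2 fold change 2.77 ± 0.19 SE, adjusted p = 7.2e-05, edgeR). Uhrf1, which brings DNMT1 to replicated DNA, had 2.50, 5.26 and 4.92 CPM in tumours, against 0.151 and 0.368 CPM in normal pancreas (3.98 ± 0.60, adjusted p = 0.00153, edgeR, and 4.77 without normal replicate 2). Smchd1, a silencer of some imprinted clusters, rose by 1.58 ± 0.14 on the log2 scale (SE, adjusted p = 0.000173, edgeR). Ctcf, the insulator protein of the Igf2-H19 control region, fell by 0.64 ± 0.14 (SE, adjusted p = 0.00641, edgeR), but had the opposite sign with total counts (2.54) and with TPM values (0.75 and 0.90), and its adjusted p was 0.072 without normal replicate 2. Trim28, the co-repressor that ZFP57 recruits, had 53.1, 59.2 and 51.66 CPM in tumours and 55.04 and 59.1 CPM in normal pancreas, and Zfp57 itself had 0.217 to 0.877 CPM in tumours and 0 and 0.295 CPM in normal pancreas.

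Around Igf2, Igf2r and Grb10, 12 of 13 genes of the IGF axis were tested, with 5 that rose (41.7%) and 5 that fell, beside 39.2% and 27.8% of all tested genes. Igf1, the other IGF ligand, fell to 9.20, 7.22 and 4.57 CPM in tumours, against 104 and 119 CPM in normal pancreas (log2 fold change -3.97 ± 0.28 SE, adjusted p = 8.5e-05, edgeR). Igf1r, the receptor of both ligands, had 112, 23.6 and 52.1 CPM in tumours, against 18.4 CPM in replicate 1 and 18.3 CPM in replicate 2 of normal pancreas. Its adjusted p (edgeR) of 0.040 was 0.164 and 0.163 without normal replicate 1 and 2 and 0.059 without tumour replicate 3. Irs2, the docking protein below the receptors, rose by 2.58 ± 0.36 on the log2 scale (SE, adjusted p = 0.00105, edgeR), and Igfbp6, a binding protein that prefers IGF2, fell by 3.54 ± 0.23 (SE, adjusted p = 6.5e-05, edgeR). Without either normal library, 3 of the IGF axis genes rose and 3 fell, and with total counts 9 rose and 1 fell.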

How the data were processed

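RNA sequencing libraries of 3 tumours and 2 normal pancreases were analysed from processed files. The submitters' processing notes name Trim Galore 0.60, STAR 2.7 and RSEM 1.31, with mm10 and GRCm38. Settings, strand and annotation are not given there. The authors deposited estimated counts per gene, which RSEM divides among genes that share reads. The authors also deposited TPM values, which correct for length. The deposited per-library files also give RSEM length and effective length in bases, a value of another kind. The deposited FPKM values were not used. Series tables and per-library files differed by at most 0, and 92 spike-in rows, all at 0, were not used.

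For testing, the counts were rounded and fitted with edgeR 4.0.16 (R 4.3.3; quasi-likelihood test, TMM, filterByExpr defaults, Benjamini-Hochberg over 16810 genes, threshold 0.05). A positive log2 fold change is higher in tumour. The SE is the absolute log2 fold change over the square root of F. The procedure was tested on simulated data. DESeq2 1.42.0 and limma 3.58.1 on log2(TPM + 1) and log2(TPM + 0.1), other scalings, no filter, left-out libraries and tumour replicates 1 and 2 summed were alternatives, 13 settings in all. Gene coordinates are GENCODE M21 on GRCm38; 55180 of 55573 identifiers match with their version, and for 3 members (Rian, Gnas and Trappc9) the match ignores it. Sequences come from RefSeq tables on GRCm38.p6.

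The members, the gene lists and the tests were chosen with earlier results of these data known. All 42 members are named. From the other lists up to 6 genes per direction with the smallest p may be named. The overlap partners Kcnq1, Commd1, Copg2 and Ube3a are named as well, as are other imprinted genes of the Kcnq1ot1 and Peg10 regions. Where a group had 0 counts, a floor of 3 for the whole group stands in. Ratios of pooled counts, used for 1 to 3 counts, carry a 95% exact binomial (Clopper-Pearson) interval. Nothing in the labels shows that the replicates are separate animals, so p-values reflect only how these samples vary, in part perhaps technically. One marker gene is not reported here.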

Additional observations from a re-analysis of the deposited data

How the results depend on the processing

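Higher and lower calls among the members numbered 26 and 4. Leaving out each library gave 21 to 28 higher and 4 lower, with 21 without either normal library; DESeq2 gave 26 and 6, and summing tumour replicates 1 and 2 gave 27 and 4. With total counts in place of TMM scaling, the median log2 fold change over all genes moved to 3.55, with 0.51 by upper-quartile scaling and 0.62 and 1.40 with TPM values (pseudocounts of 1 and 0.1). Higher and lower calls were then 15681 and 398 of all genes with total counts, 10665 and 1173 with log2(TPM + 1), and 11558 and 1192 with log2(TPM + 0.1), against 6587 and 4669. Lower members numbered 0 with total counts and 2 with either TPM pseudocount. Other imprinted genes gave 25 higher and 2 lower with total counts, 16 and 3 with log2(TPM + 1), and 17 and 3 with log2(TPM + 0.1), against 8 and 9. The 1 lower imprint regulator became 0 under these 3 settings, and 0 to 1 when each library was left out, with 0 without normal replicate 2. IGF axis genes gave 9 higher and 1 lower with total counts, 7 and 2 with log2(TPM + 1), 8 and 2 with log2(TPM + 0.1), 3 lower by upper-quartile scaling, and 3 to 5 higher and 3 to 5 lower when each library was left out (3 lower without either normal library or tumour replicate 2), against 5 and 5. Members shorter in every tumour numbered 5, with 3 at a minimum of 50 counts and 5 to 8 when each library was left out. Log2 fold changes changed sign with total counts for Grb10 (0.60), Cdkn1c (0.85), Trappc9 (1.70), Cobl (0.59), Commd1 (2.14), Copg2 (2.81), Ctcf (2.54), Trim28 (3.12), Snrpn (2.99) and Zrsr1 (2.96). With TPM values (pseudocounts of 1 and 0.1) they did so for Commd1 (0.30 and 0.32), Copg2 (0.63 and 0.80), Ctcf (0.75 and 0.90), Trim28 (1.56 and 1.63), Snrpn (0.999 and 1.14) and Zrsr1 (0.68 and 0.97). Snrpn and Zrsr1 passed the threshold as higher under these 3 settings only. When a library was left out, uncalled values changed sign for Igf2, Plagl1, Snrpn and Zrsr1. Trim28, at -0.063, also came to 0.068 by upper-quartile scaling and to -0.117 to 0.0059 when each library was left out. The cause was not tested, apart from the scaling itself. No paired analysis was possible because the titles give tumours and normal pancreases no shared numbers. Depth limits the members with 3 counts or fewer in normal pancreas, 12 of 42, whose folds are bounds or wide intervals.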

Other observations

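Of other annotated genes that lie between members of an imprinted domain, 24 had at least 10 counts over all libraries. Of these, 17 were tested, with 11 higher in tumours and 3 lower, beside 39.2% and 27.8% of all tested genes. All 11 higher genes had no count in normal pancreas and were fitted because of their tumour counts alone, so nothing is read from that share. Among them, Gm44862, Gm44863, Gm44584 and Gm44586 lie within Usp29 on its strand. The lower genes were the pseudogenes Gm7367 and Gm10297 of the Snrpn domain, with log2 fold changes of -1.91 ± 0.58 and -1.61 ± 0.43 (SE, adjusted p = 0.024 and 0.015, edgeR), and Pon2, a paraoxonase gene of the Peg10 domain, with -0.76 ± 0.15 (SE, adjusted p = 0.00513, edgeR). In TPM, Pon2 had the opposite order, with means of 3.24 TPM in tumours and 1.98 TPM in normal pancreas. The groups overlapped in TPM for both pseudogenes. Gm7367 had 1.32, 1.38 and 0.36 TPM in tumours and 1.7 and 1.0 TPM in normal pancreas. Gm10297 had 0.92, 0.64 and 0.58 TPM in tumours and 0.88 and 0.73 TPM in normal pancreas. Both pseudogenes may share reads with other copies. The genes that follow are among the higher ones and were chosen after their values were seen. In the interval between Snrpn and Ndn, the long non-coding genes A230057D06Rik and A330076H08Rik had no count in normal pancreas. A230057D06Rik had 62.3, 42.6 and 46.4 CPM in tumours and was at least 465-fold higher, and A330076H08Rik had 45.2, 29.0 and 31.6 CPM in tumours and was at least 328-fold higher. Snrpn, at one end of that interval, overlapped between the groups. In the Dlk1-Dio3 domain, Gm37899, between Rian and Mirg, had 23.5, 12.6 and 11.1 CPM in tumours and no normal count, and was at least 154-fold higher. B830012L14Rik, beside it, was at least 26.4-fold higher.

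Protein-coding genes just outside 10 imprinted domains, the nearest 2 tested genes on each side, numbered 39 in all. Of these, 17 were higher in tumours, 9 lower and 13 did not pass the threshold, with a median log2 fold change of 0.70. Over all tested genes 39.2% were higher and 27.8% lower, with a median of 0.38. Among the higher genes, Gabra5, Otud7a, Th, Trpm5 and Fam135b had no normal count and were fitted because of their tumour counts alone. Among the lower genes, Src, Zfp954, Mrpl23 and Chrac1 had the opposite order in mean TPM, and the others kept theirs. Next to the Dlk1-Dio3 domain, Wars, a tryptophan tRNA ligase gene abundant in pancreas, had a log2 fold change of -4.24 ± 0.15 (SE, adjusted p = 1.8e-05, edgeR), and Dync1h1, the dynein heavy chain, 2.10 ± 0.21 (SE, adjusted p = 0.000265, edgeR). Wdr25 and Ppp2r5c in the same surroundings did not pass the threshold (adjusted p = 0.237 and 0.238, edgeR).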
